A study of Homo sapiens with 6 samples.

Results

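POLR2A, which encodes the largest subunit of RNA polymerase II, and 8 genes for large chromatin coactivators were followed across human leukaemia cell lines in which CXXC5, also called RINF, had been targeted by an shRNA. The members were taken by gene symbol, as the features of the array annotated to POLR2A, KMT2C, KMT2D, SETD1A, SETD1B, EP300, CREBBP, EP400 or SRCAP. This gave 9 of 67528 features, 1 for each gene. The set was proposed from, and in that sense chosen by, shRINF minus shcontrol differences of these arrays that were already known. All values of that contrast are therefore a description and carry no test. All 9 features passed the filter on low values, a log2 level of 5 or more on at least 2 of 6 arrays, along with genes to a total of 15427. The KMT2C feature also carries the older symbol MLL3 of the same gene. The EP300 feature carries the symbol of the microRNA gene MIR1281 as well, so its values are those of a feature shared by both genes.

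Every culture was proliferating and carried a lentiviral vector, with either the shRNA that targets CXXC5 (shRINF) or a control shRNA (shcontrol). K562 derives from chronic myeloid leukaemia and has erythroid features, UT7-5.3 comes from the UT-7 line with erythroid and megakaryocytic features, and MV4-11 is a leukaemia line with monocytic features. There was 1 array per line and condition, 6 in all, which gives 3 arrays in each group with the lines as replicates. K562 and MV4-11 were grown in RPMI and UT7-5.3 in MEM alpha with GM-CSF, so that UT7-5.3 and its medium cannot be told apart.

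RNA polymerase II transcribes protein-coding genes, and its largest subunit carries the catalytic centre and the repeated C-terminal domain whose phosphorylation marks initiation and elongation. KMT2C and KMT2D methylate histone H3 lysine 4 at enhancers, and SETD1A and SETD1B do so at active promoters, all within complexes built on the COMPASS core. EP300 and CREBBP are paralogous acetyltransferases recruited by many transcription factors. EP400 and SRCAP are ATP-driven remodellers that place the histone variant H2A.Z. CXXC5 and CXXC1, a partner of the SETD1 enzymes, both have a zinc finger that binds unmethylated CpG.

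Median log2 levels of all features lay between 4.64 and 4.71 on the 6 arrays. On the log2 scale CXXC5 itself differed with shRINF by -0.45 (K562), -0.66 (UT7-5.3) and -0.63 (MV4-11), lower in each line (mean -0.58 ± 0.11, SD, n = 3). The labelled lines were checked against marker lists. Of 10 erythroid and megakaryocytic markers 8 were on the array, and 7 were higher on every K562 and UT7-5.3 array than in MV4-11. GATA1 lay at 9.81 or more there and at 5.94 or less in MV4-11, while the gap was small for KLF1 (8.71 to 8.93, against 8.16 and 7.62) and, in K562, for the platelet integrin ITGA2B (6.23 and 6.27, against 6.06 and 5.94). The platelet gene GP9 lay between 5.56 and 5.85 on all arrays. Of 10 myeloid and monocytic markers 8 were on the array, and 6 were higher on both MV4-11 arrays than elsewhere, such as FLT3 (9.61 or more, against 3.50 or less). The monocyte marker CD14 was low on all arrays (4.50 to 4.63), and the integrin ITGAM was higher in UT7-5.3 (8.47 and 8.01) than in MV4-11 (7.36 and 6.66). Of 12 markers of other cell types (lymphoid, epithelial, stromal and endothelial), 11 were on the array, with a median level of 5.06 to 5.91 and a summed level of 65.8 in UT7-5.3 shcontrol and 64.9 in UT7-5.3 shRINF. Over the 3 arrays of a group the summed level ranged from 60.9 to 67.7 with shcontrol and 60.6 to 67.3 with shRINF. None was at 0, since the array gives every feature a value, and the part of such cells in the results was not tested.

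The differences between all genes of the UT7-5.3 pair were wider than in the other lines. Their SD over the 15427 genes was 0.258 in UT7-5.3, 0.103 in K562 and 0.179 in MV4-11. They also followed the level of the gene. With genes in 10 bins of equal size by mean level, the UT7-5.3 median difference went from -0.17 in bin 3 to 0.13 in bin 10, whereas the bin medians of K562 and of MV4-11 lay between -0.02 and 0.03.

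With shRINF, POLR2A was lower in UT7-5.3 and close to level in the other lines. Its log2 level was 9.50 on the K562 shcontrol array and 9.53 with shRINF, 9.99 and 8.96 in UT7-5.3, and 9.50 and 9.51 in MV4-11. The 4 arrays of K562 and MV4-11 thus lay within 0.03 of each other, while the UT7-5.3 arrays lay on either side of them, 0.48 above their mean with shcontrol and 0.55 below it with shRINF (-0.55). The difference of -1.03 in UT7-5.3 left POLR2A at 49% of its control level. Over the 3 lines the mean difference was -0.33 ± 0.61 (SD, n = 3), and without UT7-5.3 it was 0.02. Only LINC01001 and KMT2D had a lower value among the 15427 genes of the UT7-5.3 pair, and LINC01000 and SNORA2A had the same one. With 1 array per condition within a line, no within-line value has a replicate.

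**Figure D1:**
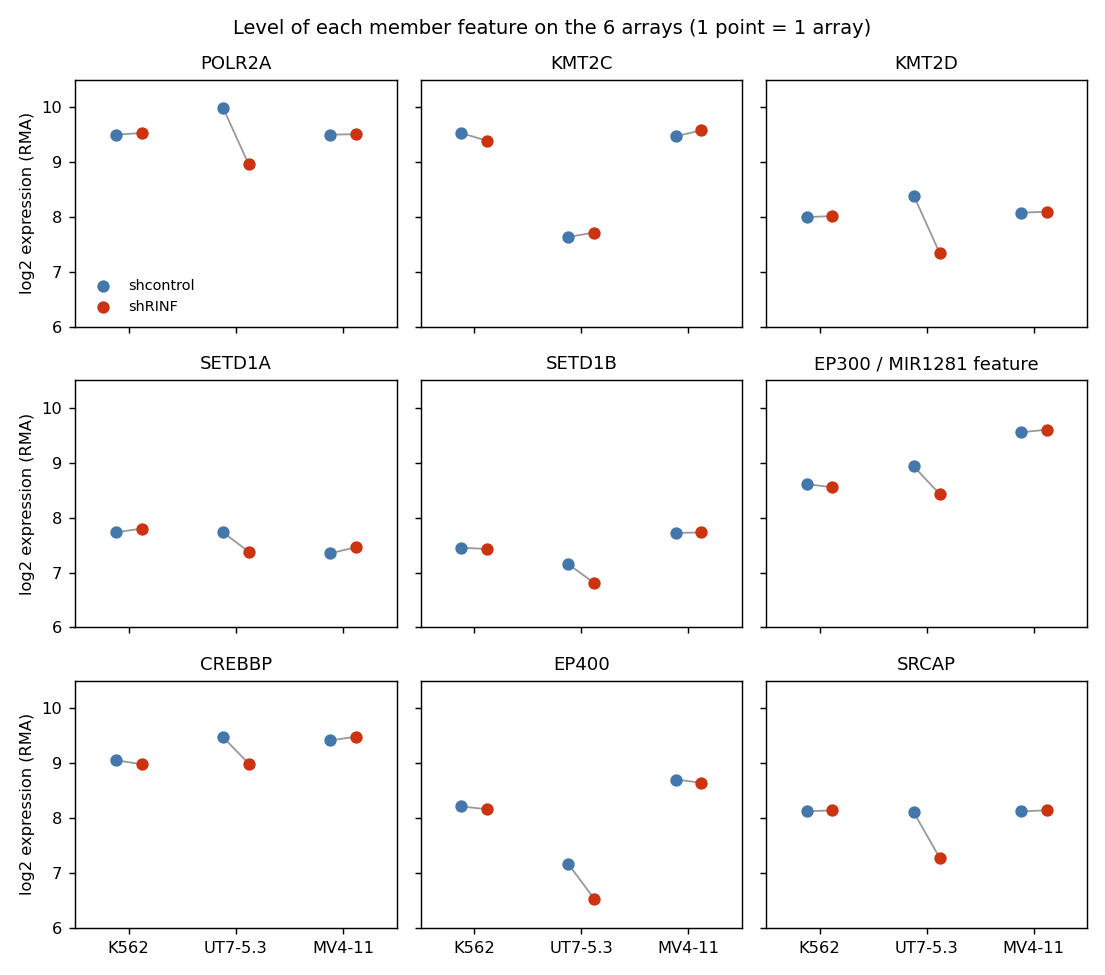
Log2 level (RMA, vertical axis) of each member feature on the 6 arrays, by cell line, where each point is 1 array and a grey line joins the shcontrol array (blue) to the shRINF array (red) of a line. POLR2A goes from 9.99 to 8.96 in UT7-5.3 and stays between 9.50 and 9.53 elsewhere. KMT2C, EP400 and, by less, SETD1B are lower in UT7-5.3 on both arrays.

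The paralogues KMT2C and KMT2D differed from each other more than any other pair of related members. KMT2D lay at 8.0 and 8.02 in K562, at 8.39 and 7.35 in UT7-5.3, and at 8.08 and 8.10 in MV4-11 (shcontrol first). As with POLR2A, its UT7-5.3 shcontrol array was above the other lines and its shRINF array below them. The difference in UT7-5.3 was -1.04, or 48.6% of control, against 0.02 in both other lines. KMT2C, by contrast, lay at 9.53 and 9.39 in K562, 7.64 and 7.72 in UT7-5.3, and 9.47 and 9.58 in MV4-11. It was low on both UT7-5.3 arrays, and its difference there, 0.08, made it the one member not lower with shRINF in that line.

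SETD1A and SETD1B, the catalytic subunits of the other H3K4 methyltransferase pair, had nearly the same difference in UT7-5.3. SETD1A lay at 7.73 and 7.80 in K562, 7.73 and 7.38 in UT7-5.3, and 7.35 and 7.46 in MV4-11. Its UT7-5.3 difference was -0.35, and its 2 UT7-5.3 levels were within the range of the other arrays. SETD1B lay at 7.45 and 7.43 in K562, 7.15 and 6.81 in UT7-5.3, and 7.72 and 7.73 in MV4-11, a difference of -0.34 in UT7-5.3 from a control that was already below the other lines. In K562 and MV4-11 the differences of these genes lay between -0.02 and 0.11.

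The acetyltransferase pair also moved alike. CREBBP lay at 9.05 and 8.98 in K562, 9.47 and 8.99 in UT7-5.3, and 9.41 and 9.48 in MV4-11. Its difference of -0.48 in UT7-5.3 brought it from the MV4-11 level to the K562 level. The feature shared by EP300 and MIR1281 lay at 8.61 and 8.55 in K562, 8.93 and 8.43 in UT7-5.3, and 9.55 and 9.60 in MV4-11, with a difference of -0.50 in UT7-5.3. For both, the differences in K562 and MV4-11 lay between -0.07 and 0.07.

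Of the remodellers, SRCAP was level on 5 of 6 arrays. It lay at 8.12 and 8.14 in K562, 8.10 and 7.28 in UT7-5.3, and 8.12 and 8.14 in MV4-11. Here the UT7-5.3 shcontrol array matched the other lines within 0.04, and only the shRINF array stood below, at 56.6% of control (difference -0.82). EP400 lay at 8.21 and 8.16 in K562, 7.16 and 6.53 in UT7-5.3, and 8.70 and 8.64 in MV4-11. Its UT7-5.3 difference was -0.63, from a control level already 1.27 below the mean of the other lines (-1.27).

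Read together for the UT7-5.3 pair, 8 of 9 members were lower with shRINF, where 56.2% of all genes tested were lower (K562 had 5 of 9 and 43.4%, MV4-11 1 of 9 and 47.3%). By 0.5 log2 units or more, 5 of 9 were lower (POLR2A, KMT2D, SRCAP, EP400 and the EP300 feature), where 1.17% of all genes were, and by 1 unit or more 2 were, where 0.0324% of all genes were. The count at 0.5 depends on the processing. The EP300 feature, at -0.50, went to -0.45 with median centring. CREBBP, at -0.48, went to -0.551 after quantile normalization and -0.555 after cyclic loess. Since this contrast was in view when the members were proposed, nothing is read from these counts. The median of the members was -0.50 and that of all genes -0.06. Members lay in bins 7, 8 and 10 of mean level, in which the medians of all genes were 0, 0.06 and 0.13. Set against those medians, POLR2A was at -1.16, KMT2D at -1.10 and SRCAP at -0.88, and KMT2C at -0.05, so that the sign of KMT2C turned. In K562 the members ranged from -0.14 to 0.07 (median -0.02) and in MV4-11 from -0.06 to 0.11 (median 0.02). None reached 0.5 in either direction there, where 0.0907% of genes in K562 and 0.895% in MV4-11 were lower by that much.

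**Figure D2:**
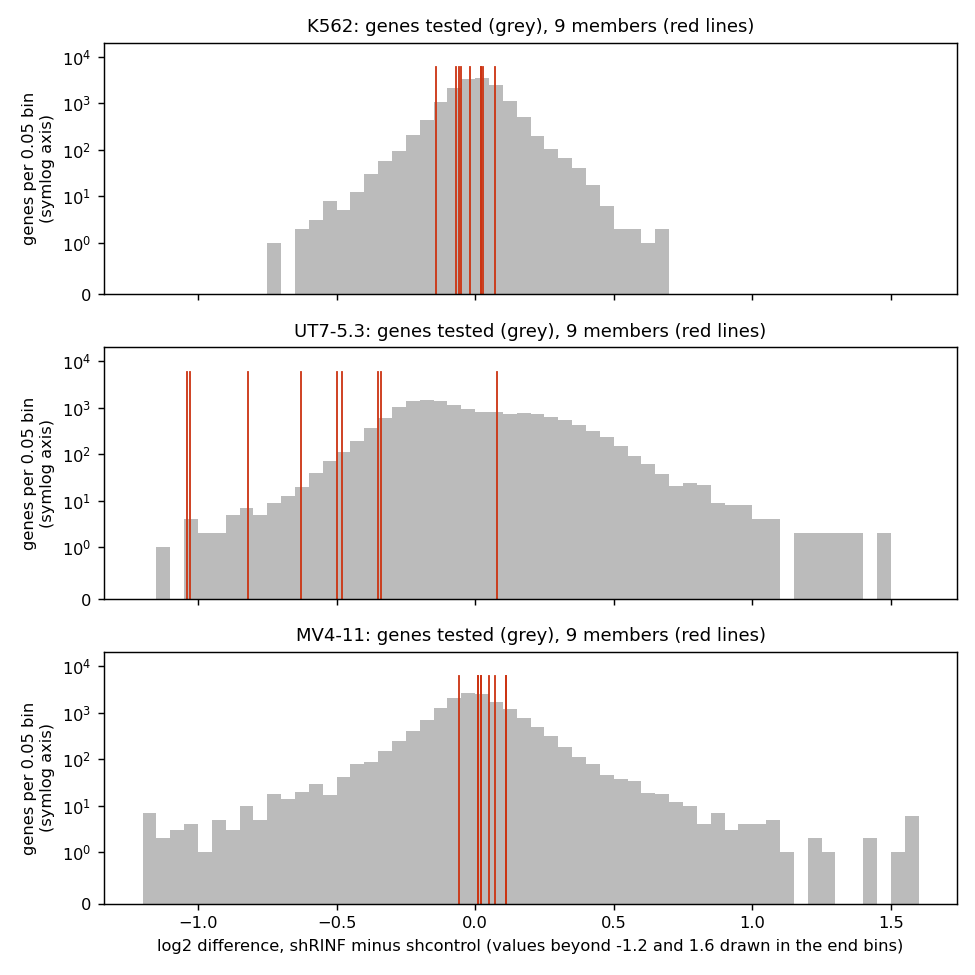
Number of genes tested per 0.05 bin (vertical symlog axis) against the log2 difference, shRINF minus shcontrol, in each cell line, with the 9 members as red lines. The members sit between -0.14 and 0.11 in K562 and MV4-11, and 8 of 9 lie between -1.04 and -0.34 in UT7-5.3.

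**Figure D3:**
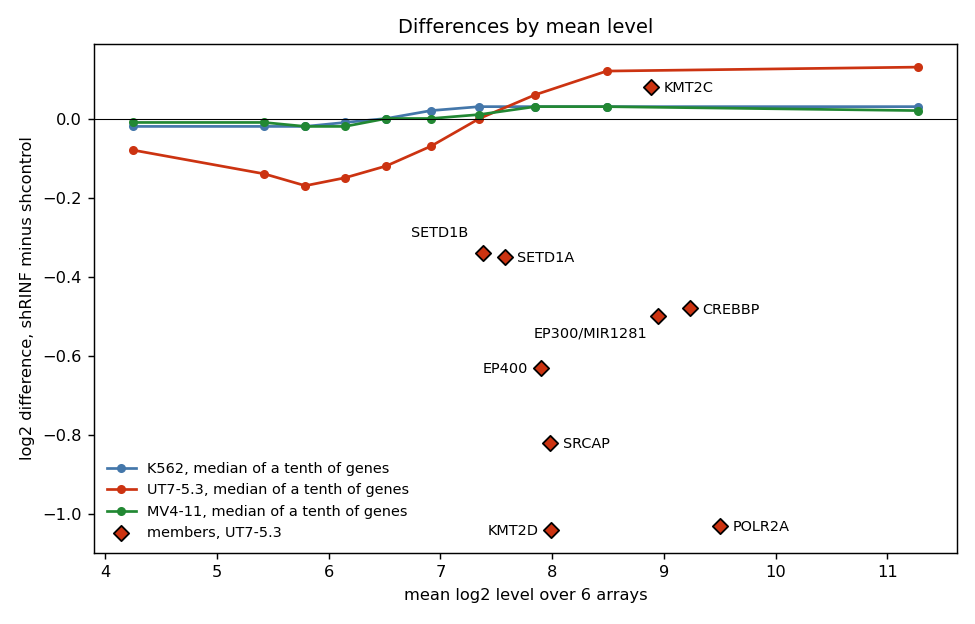
Median log2 difference (shRINF minus shcontrol, vertical axis) of the genes in each of 10 bins of mean log2 level (horizontal axis, middle of the bin), 1 line per cell line, with the UT7-5.3 differences of the members as diamonds. The UT7-5.3 medians go from -0.17 to 0.13 with level, and the members other than KMT2C lie below -0.3.

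Across the 3 lines together, limma with the cell line as a block called 0 of 15427 genes between shRINF and shcontrol at an adjusted p under 0.05 (0% called), while for 984 genes (659 higher, 325 lower) the unadjusted p was under 0.05. Robust eBayes called 2, CXXC5 (-0.58, limma adjusted p = 0.0312) and DYNLRB1 (0.74, limma adjusted p = 0.00839), named after their values were seen. Without MV4-11 limma called 51, in a fit of K562 and UT7-5.3 alone with 1 residual degree of freedom.

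The genes whose 3 within-line differences lay nearest to those of POLR2A were ranked by Euclidean distance over the 3 lines. KMT2D was the nearest of all genes, at 0.017, and SRCAP was ranked 9, at 0.21. Outside the members, the 5 nearest were HSPG2, which encodes the matrix proteoglycan perlecan, at 0.1, LINC01001 at 0.114, LINC01000 and LOC729737 at 0.139 each, and LINC01002 at 0.153. HSPG2 lay at 7.57 in UT7-5.3 shcontrol and 6.62 with shRINF, and at 7.47 and 7.44 in K562. Among the 5 genes nearest to KMT2D, to the EP300 feature and to SETD1A, 1, 1 and 0 were members. These distances rest on the contrast that was in view, and on 3 pairs of arrays.

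Among the other subunits of RNA polymerase II, none was lower in UT7-5.3 by 0.5 or more. All 11 listed (POLR2B to POLR2L) were measured, and their median there was 0.08. POLR2B, the second largest subunit, went from 9.73 to 9.99 there (0.26), POLR2K, a small zinc-binding subunit, from 8.61 to 8.88 (0.27), and POLR2E, a subunit shared with the other nuclear polymerases, from 9.74 to 9.45 (-0.29). Their medians were 0.05 in K562 and 0.08 in MV4-11. Of 25 genes for pausing, elongation and enzymes of the C-terminal domain, 22 were measured. None was lower in UT7-5.3 by 0.5 or more and 1 was higher by that much (3.25% of all genes were), with a median of 0.055. The 3 with the widest differences were CCNH (0.55), CDK7 (0.46) and MNAT1 (0.44), which together form the kinase module of TFIIH that phosphorylates the C-terminal domain. Their values in K562 were 0.00, 0.08 and 0.11, and in MV4-11 -0.03, -0.04 and 0.01.

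Genes of the complexes around the members went both ways in UT7-5.3. Of the 17 COMPASS methyltransferases and subunits, all measured, 2 were lower by 0.5 or more, where 1.17% of all genes were. In the same list 1 was higher by as much, where 3.25% of all genes were, and the median was 0.01. The lists were drawn up with earlier results known, so nothing is read from their counts. HCFC1, a host cell factor bound by SETD1 and KMT2 complexes, went from 9.70 to 8.93 (-0.77), and KMT2B, a further H3K4 methyltransferase, from 8.55 to 7.85 (-0.70). BOD1L1, a SETD1A partner at replication forks, went from 6.96 to 7.47 (0.51). The 11 of 12 other acetyltransferases measured had a median of 0.06, with KAT2B at 0.46, its paralogue KAT2A at -0.31 and HAT1, which acetylates new histone H4, at 0.30. The 19 genes listed for the EP400, SRCAP and INO80 complexes, of which only some are shared between complexes, had a median of 0.13 and none past 0.5. TRRAP, a scaffold of the EP400 complex, was at -0.32, and MEAF6, of the EP400 complex, and ACTR6, of the SRCAP complex, were at 0.33 each.

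The UT7-5.3 differences of all genes also varied with gene span. With genes in 10 bins by span in RefSeq, the median difference was -0.13 in bin 2, -0.04 in bin 6 and 0 in bin 7, which hold 1 and 4 members, POLR2A, KMT2D and SRCAP among them, and 0.08 and 0.07 in bins 9 and 10, which hold 1 and 3 members. Of 36 other large chromatin and corepressor genes, 31 were measured, with a median of 0.01. Of these, 1 was lower by 0.5 or more, where 1.17% of all genes were, and 4 were higher, where 3.25% were. The remodeller subunit ARID1A was at -0.61, and the remodeller ATRX and the bromodomain protein BAZ2B at 0.70 and 0.56. Among 27 of 31 long transcripts outside chromatin, 2 were lower and 1 higher by as much, with a median of 0.03. Fatty acid synthase (FASN) was at -0.79, the cytoskeletal linker TLN1 at -0.52 and the kinase ATM at 0.65. The 18 of 32 ribosomal protein genes measured lay between -0.05 and 0.18. Transcript length, base composition and RNA integrity were not measured here, and their part in the UT7-5.3 differences was not tested.

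**Figure D4:**
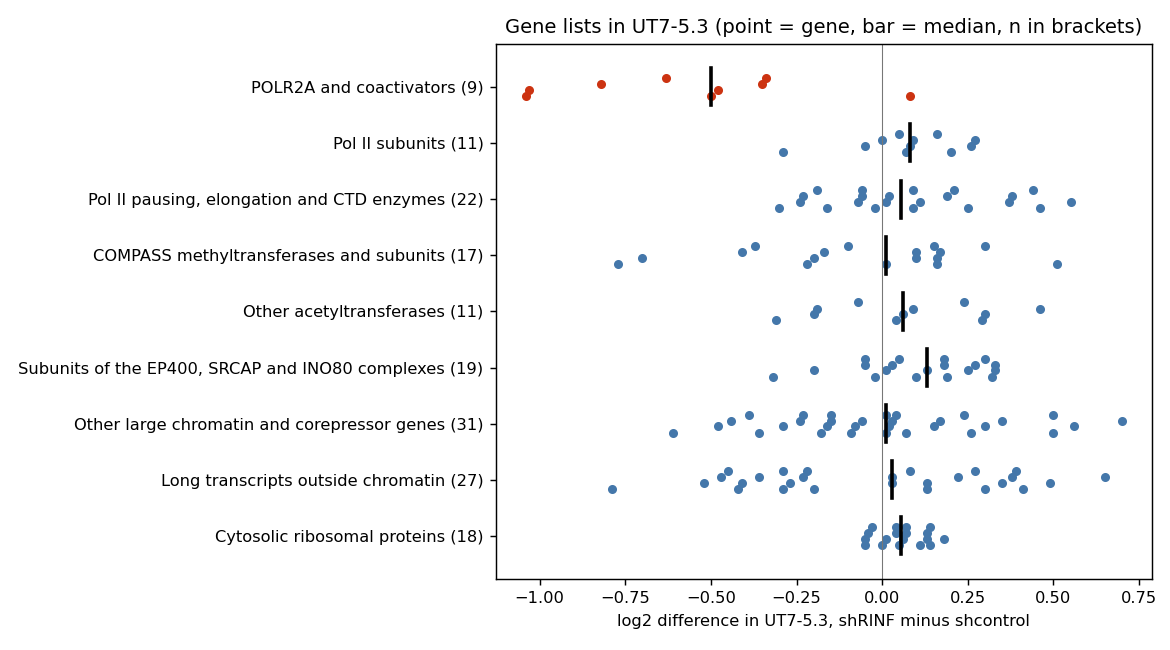
Log2 difference in UT7-5.3 (shRINF minus shcontrol, horizontal axis) of each gene (point) in the members and in 8 gene lists, with the median as a bar and the number of genes in brackets. The median of the members is -0.50, and those of the lists lie between 0.01 and 0.13. The lists spread to both sides, from -0.79 (FASN) to 0.70 (ATRX). Of the long transcripts outside chromatin 13 are lower and 14 higher, and of the other large chromatin genes 15 and 16.

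Genes next to the members on the chromosome were also looked at. The nearest tested protein-coding gene on each side, 18 in all, had UT7-5.3 differences between -0.45 (FBRS, beside SRCAP) and 0.18 (XRCC2, beside KMT2C), with a median of -0.13 and none lower by 0.5 or more. PRKAG1 and RHEBL1, on either side of KMT2D, were at 0.09 and 0.04. SLC35G6 and TNFSF13, on either side of POLR2A, were at -0.39 and -0.08. Of the members, 3 lie on chromosome 12 (KMT2D, SETD1B and EP400) and 3 on chromosome 16 (SETD1A, CREBBP and SRCAP).

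Promoter windows were examined because a CXXC finger binds CpG. RefSeq windows (GRCh38.p14, 250 bases before to 50 after the start) were matched for 8 of 9 members, all but SETD1B. The dinucleotide CG occurred 27 times in the KMT2D window, 28 in POLR2A, 30 in SETD1A and in SRCAP, 36 in CREBBP, 40 in EP300, 51 in EP400 and 56 in KMT2C, against a median of 14 over 27305 promoters. As many as in POLR2A were found in 25.9% of all promoters, and as many as in KMT2C in 0.289%. GGGCGG, the core of a GC box, searched on both strands and overlapping CG by construction, was in 7 of the 8 windows and in 44.6% of all promoters. CCAAT and TATAAA, on both strands, were in none of the 8 and in 35.7% and 12% of all promoters. The set of all promoters includes genes that were not tested here, whereas the members had passed the filter. A promoter window was present for 11171 of the genes tested, and no median or share was taken over these alone. The 250 upstream bases are shown for the members with the lowest UT7-5.3 differences, POLR2A (chr17:7484116-7484365, plus strand) and KMT2D (chr12:49060795-49061044, minus strand), and for KMT2C (chr7:152436004-152436253, minus strand), which was not lower, each 5′ to 3′ with CG in capitals.
POLR2A: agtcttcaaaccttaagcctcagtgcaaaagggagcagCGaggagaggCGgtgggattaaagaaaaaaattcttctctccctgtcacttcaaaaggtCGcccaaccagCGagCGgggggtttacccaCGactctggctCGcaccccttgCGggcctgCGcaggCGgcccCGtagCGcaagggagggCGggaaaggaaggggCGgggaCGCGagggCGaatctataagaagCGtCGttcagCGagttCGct
KMT2D: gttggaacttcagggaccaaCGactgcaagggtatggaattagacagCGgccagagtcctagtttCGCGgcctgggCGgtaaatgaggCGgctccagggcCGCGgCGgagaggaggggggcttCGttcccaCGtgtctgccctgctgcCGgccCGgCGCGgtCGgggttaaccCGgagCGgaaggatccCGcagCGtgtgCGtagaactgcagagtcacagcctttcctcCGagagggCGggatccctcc
KMT2C: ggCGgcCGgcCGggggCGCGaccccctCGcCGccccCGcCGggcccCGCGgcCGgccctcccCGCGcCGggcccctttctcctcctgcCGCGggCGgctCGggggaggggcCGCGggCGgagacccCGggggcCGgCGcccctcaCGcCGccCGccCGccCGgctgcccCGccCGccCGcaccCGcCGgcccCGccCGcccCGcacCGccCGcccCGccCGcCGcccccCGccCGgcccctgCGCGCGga
These stretches hold 21, 23 and 48 CG. EP400, with 51 CG in its window, had a difference of -0.63 in UT7-5.3, and no relation of CG content to the differences is drawn. CG content is a property of the sequence, and neither binding nor methylation was measured.

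Levels between lines were compared with limma over all 15427 genes in an additive fit of cell line and shRNA, where each line has 2 arrays. These are its shcontrol and its shRINF array, so an SD with n = 2 reflects the gap between the conditions. No line had a repeated culture within a condition, so neither the SD nor the p-values measure the spread between cultures of a line. The mean of UT7-5.3 holds its shRINF array, whose low values were known when the members were proposed, so the comparisons with UT7-5.3 are a description and are also given on the shcontrol arrays alone. The comparison of MV4-11 with K562 uses means that the choice did not, although its estimate of spread takes in the UT7-5.3 arrays.

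Between MV4-11 and K562, 4 of 9 members passed at an adjusted p under 0.05, where 50.4% of all genes did. Of these, 3 were higher in MV4-11 (22.9% of all genes were) and 1 was lower (27.5%), so that the share called was near that of all genes. The EP300 feature was 1.99-fold higher in MV4-11 (9.58 ± 0.04, mean ± SD, n = 2) than in K562 (8.58 ± 0.04; limma adjusted p = 2.83e-05). Its paralogue CREBBP was 1.35-fold higher (limma adjusted p = 0.0143) and EP400 1.40-fold higher (limma adjusted p = 0.0103). SETD1A was 1.28-fold lower in MV4-11 (limma adjusted p = 0.0291), a call lost after quantile normalization (0.0893), cyclic loess (0.112) and with no filter (0.0707). SETD1B lay at 7.73 ± 0.01 in MV4-11 and 7.44 ± 0.01 in K562. It was on the border of the threshold (limma adjusted p = 0.0588, range over 12 alternatives 0.0252 to 0.0999). It passed after quantile normalization (limma adjusted p = 0.0298), cyclic loess (0.0335), with robust eBayes (0.0483) and in the fit without UT7-5.3 (0.0252).

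The remaining members did not pass between MV4-11 and K562. POLR2A differed by -0.01 (95% interval -0.44 to 0.42), KMT2D by 0.08 (-0.36 to 0.52), SRCAP by 0 (-0.37 to 0.37) and KMT2C by 0.07 (-0.17 to 0.30). These intervals are wide for POLR2A, KMT2D and SRCAP, whose UT7-5.3 arrays differ with the shRNA and enter the spread of the fit.

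With UT7-5.3, the additive fit called 3 of 9 members lower in UT7-5.3 than in K562 (KMT2C, SETD1B and EP400), where 41.5% of all genes were called and 21.2% were called lower. It called 5 of 9 higher in MV4-11 than in UT7-5.3 (KMT2C, SETD1B, EP400, SRCAP and the EP300 feature), where 48.4% were called and 22.6% were called higher. Nothing is read from these counts. On the shcontrol arrays alone, KMT2C was lower in UT7-5.3 than in K562 (-1.89), and was higher in MV4-11 than in UT7-5.3 by 1.83. EP400 differed by -1.05 and 1.54 in the same comparisons, and SETD1B by -0.30 and 0.57. SRCAP was nearly level, at -0.02 and 0.02. Its call in the fit had an adjusted p of 0.0497 by limma and ended in 10 of 12 alternatives. POLR2A was higher in UT7-5.3 shcontrol than in K562 shcontrol by 0.49, and KMT2D by 0.39. With 1 shcontrol array per line, these differences have no replicate.

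**Figure D5:**
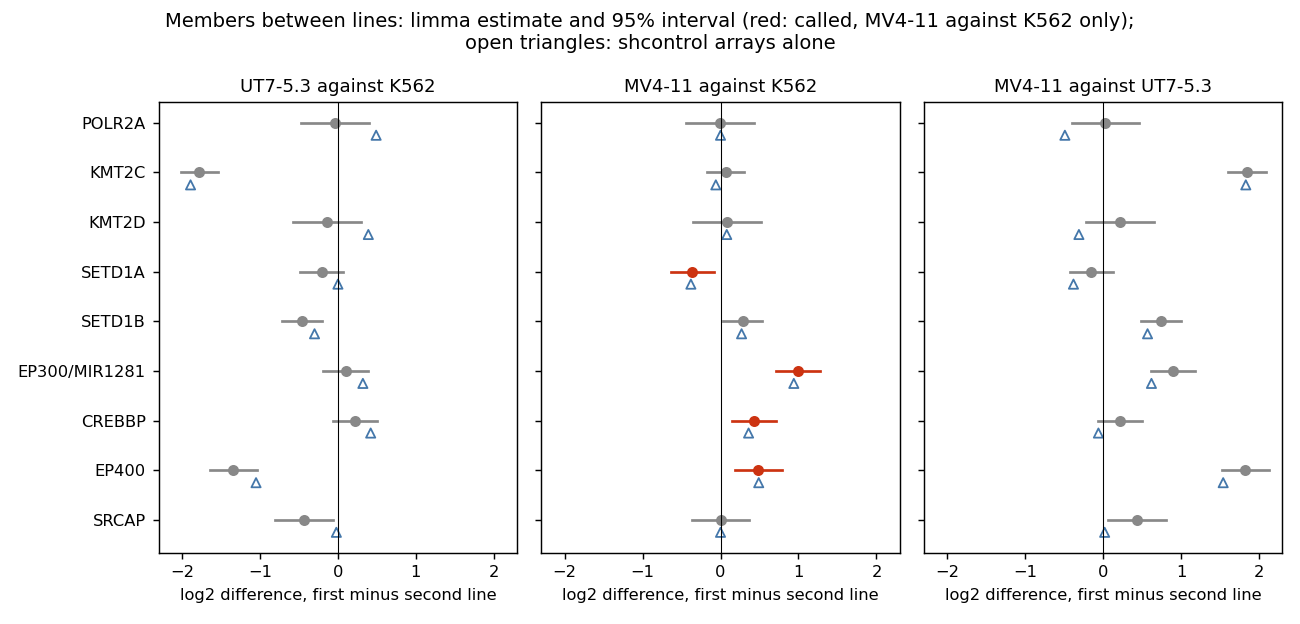
Log2 difference between lines (horizontal axis, first minus second line) of each member, with limma's 95% interval as a bar, calls at an adjusted p under 0.05 in red for MV4-11 against K562 only, and the difference of the shcontrol arrays alone as open triangles. KMT2C, EP400 and, by less, SETD1B are lower in UT7-5.3 on both readings, while SRCAP on the shcontrol arrays lies at -0.02 and 0.02.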

How the data were processed

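Each deposited value is a log2 expression level of 1 transcript cluster on 1 array. Per the submitters' processing notes, the authors used RMA and Affymetrix Expression Console. The sources used here give neither versions nor a genome build. RMA brings all arrays to a common distribution, so a change shared by most transcripts is removed. The log base was taken as 2 from the method and the range of values. Precision is limited by the number of arrays, 6.

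Gene symbols came from the platform's annotation, in which 23781 of 67528 had 1 symbol, 1543 several and 42204 none listed. Symbols were updated through RefSeq (GRCh38.p14), which made 246 features with several symbols 1 gene. A gene with several features was represented by the one of highest mean, and the EP300 feature was added to the table.

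Differences were fitted with limma 3.58.1 (lmFit, eBayes; R 4.3.3) over 15427 genes, with Benjamini-Hochberg adjustment and a threshold of 0.05. Arrays were paired by cell line, and their deviations from the group means correlated at 0.928 to 0.969 within a line. The cultures are single, so p-values measure the spread between these arrays. In the additive fit that spread is how far the shRINF minus shcontrol difference varied between lines, combined by eBayes with the spread of all genes. The p-values between lines are set against it as well, and not against repeated cultures of a line. The fit was checked on simulated data with the same spread in every line and with shifts larger than those of the members. That check does not bear on differences of the size seen in the members. Members and gene lists were chosen with earlier results of these data known. The genes named were the members, CXXC5, the 5 nearest to POLR2A outside the members, up to 3 per list by absolute difference in UT7-5.3, cell type markers, and others after their values were seen (neighbours, LINC01001, LINC01000 and SNORA2A).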

Additional observations from a re-analysis of the deposited data

Results flagged for a closer look

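Within the members, the direction in 1 line was opposite to that in both others for 8 of 9. With 1 pair of arrays per line these differences between lines were not tested. Of all genes tested, 65.6% had mixed signs, by a wider rule that also takes in genes with no difference in 1 line. UT7-5.3 stood alone for POLR2A (-1.03, against 0.03 in K562 and 0.01 in MV4-11), KMT2D (-1.04, against 0.02 in both), SRCAP (-0.82, against 0.02 in both) and SETD1A (-0.35, against 0.07 and 0.11). For KMT2C the line that stood alone was K562 (-0.14, against 0.08 in UT7-5.3 and 0.11 in MV4-11). MV4-11 stood alone by small values for SETD1B (0.01), the EP300 feature (0.05) and CREBBP (0.07), while UT7-5.3 had the widest difference of these genes.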

How the results depend on the processing

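POLR2A in UT7-5.3 lay between -1.16 and -0.98 after quantile normalization, median centring, cyclic loess or removal of the trend with mean level. The other settings (filters, mean of features, symbols as listed, another line left out) cannot change its value of -1.03. The median of the members lay between -0.63 and -0.45 over all settings run. The mean difference of POLR2A over 3 lines was -0.51 to 0.02 when 1 line was left out, and turned positive, at 0.02, without UT7-5.3. KMT2C in UT7-5.3 went to -0.05 with the trend with mean level removed, a setting added after the data were examined, as were the use of symbols as listed and the line differences of the shcontrol arrays alone. Genes called between shRINF and shcontrol numbered 0 to 51 when 1 line was left out, 2 with robust eBayes and 0 with no replicate block, which leaves out the pairing by cell line. With a 2-fold minimum, which the rule makes stricter, 0 members passed between MV4-11 and K562 and 2 between MV4-11 and UT7-5.3. With symbols as listed, which leaves out KMT2C and the EP300 feature, 3 passed between MV4-11 and UT7-5.3. Leaving out a line gave 4 members for UT7-5.3 against K562, 5 for MV4-11 against K562 and 4 for MV4-11 against UT7-5.3. The share of all genes called was not computed under these settings, so nothing is read from these member counts. In the main fit it was 41.5%, 50.4% and 48.4% for these comparisons. Arrays of a single culture per condition limit every value within a line.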
